A study of Mus musculus with 12 samples.

Results

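The mitochondrial carriers of the Slc25 family were followed through the pressure-overloaded mouse heart. Members were all rows of the expression table whose protein-coding gene symbol starts with Slc25a. There were 47 such genes among 56350 rows, and 38 of them passed the minimum of 10 normalised reads in 3 or more libraries and were tested together with all 13916 genes that met this minimum. All 38 reached that value in all 12 libraries. The libraries hold polyadenylated RNA from the apex of the left ventricle, taken 8 weeks after surgery. The surgery was either transverse aortic constriction (TAC), which narrows the aortic arch and loads the left ventricle with pressure, or a sham operation. The knockout is global and removes the p53-induced long noncoding RNA lincRNA-p21 (Trp53cor1), and the littermates called controls are labelled heterozygous for it, so no group was wild type. Both genotypes had 3 libraries after sham and 3 after TAC. Strain, sex and age are not in the labels.

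Most Slc25 carriers are proteins of the inner mitochondrial membrane, built from repeats of a pair of membrane-spanning helices. They exchange nucleotides, phosphate, organic acids, amino acids, acylcarnitines, cofactors and metal ions between the cytosol and the matrix. In the heart they export ATP to the contractile apparatus, return ADP and phosphate to ATP synthase, move reducing equivalents of cytosolic NADH inwards through the malate-aspartate shuttle and bring in long-chain acyl groups for oxidation. Slc25a4 encodes the adenine nucleotide translocase of heart and skeletal muscle (ANT1). Slc25a3 encodes the phosphate carrier. Between them they supply ATP synthase with ADP and phosphate.

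Upstream sequences are printed for 4 carriers that the results turn on, to set the start regions of 3 carriers that were lower after TAC in controls beside that of Slc25a5 (ANT2), the second adenine nucleotide translocase, which did not pass. They come from RefSeq start sites on GRCm38.p6 and show only bases that lie outside annotated exons. Each runs 5′ to 3′ on the strand of the gene. Slc25a3 is shown from 250 to 93 bases before its start (chr10:91124060-91124217, minus strand). Slc25a39, the mitochondrial glutathione carrier, is shown from 250 to 28 bases before its start (chr11:102407545-102407767, minus strand). That stretch lies inside the Slc25a39 gene as annotated by GENCODE (102402985 to 102407946), so it is upstream of the RefSeq start only. Slc25a34, a muscle carrier without an agreed substrate, is shown over the 250 bases before its start (chr4:141623835-141624084, minus strand), and so is Slc25a5 (chrX:36795347-36795596, plus strand). Capitals mark matches, on either strand, to the motif of NRF1 (GCGC and TGCGC with any base between), GABP/ETS (CCGGAAG) or SP1 (GGGCGGG).
Slc25a3: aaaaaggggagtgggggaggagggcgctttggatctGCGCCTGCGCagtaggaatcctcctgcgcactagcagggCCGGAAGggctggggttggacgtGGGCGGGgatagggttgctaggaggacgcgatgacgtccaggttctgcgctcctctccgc
Slc25a39: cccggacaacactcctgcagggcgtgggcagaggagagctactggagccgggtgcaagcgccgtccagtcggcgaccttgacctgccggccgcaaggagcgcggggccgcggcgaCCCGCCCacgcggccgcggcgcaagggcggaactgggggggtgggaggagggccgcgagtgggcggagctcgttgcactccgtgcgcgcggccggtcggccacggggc
Slc25a34: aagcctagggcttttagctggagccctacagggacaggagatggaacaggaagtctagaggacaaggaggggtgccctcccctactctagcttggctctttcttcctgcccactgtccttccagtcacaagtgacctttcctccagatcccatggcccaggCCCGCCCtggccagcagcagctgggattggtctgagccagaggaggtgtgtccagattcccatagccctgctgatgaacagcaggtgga
Slc25a5: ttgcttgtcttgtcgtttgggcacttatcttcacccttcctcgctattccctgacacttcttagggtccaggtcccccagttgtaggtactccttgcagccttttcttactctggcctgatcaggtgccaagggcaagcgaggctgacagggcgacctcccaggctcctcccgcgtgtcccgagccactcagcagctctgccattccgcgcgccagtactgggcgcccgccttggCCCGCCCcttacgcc

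Of the 4 stretches, Slc25a3 held 1 match to each of the 3 motifs, and the others held SP1 matches alone. The motifs of factors linked to nuclear genes of mitochondria were counted in the 250 bases before each RefSeq start, with 39 such windows for 30 of the 38 tested carriers and 36 of all 47 members matched by symbol. An NRF1 match was present in 1 of the 39 carrier windows (2.56%), that of Slc25a3, and in 7.59% of the windows of tested protein-coding genes. GABP/ETS matches were present in 5 carrier windows (12.8%), among them those of Slc25a3 and Slc25a4, against 12.7% for tested genes. SP1 matches were present in 18 carrier windows (46.2%) against 41.8%. The oestrogen-related receptor element TNAAGGTCA had 0 matches in the 39 carrier windows, against 0.648% of the windows of tested protein-coding genes and 1.14% of all 32851 windows in the RefSeq table. These motifs can overlap each other, and a match describes letters, not binding. The Slc25a4 window is not printed, since 222 of its 250 bases lie in an annotated exon. Its GABP/ETS match, 130 bases before the RefSeq start, is within that exon.

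Each library held between 10323605 and 13238934 gene reads, and all values below are normalised reads, that is, reads scaled by the size factor of their library. Trp53cor1 had 11 reads in the 6 control libraries together and 0 in the 6 knockout libraries, and 2 control libraries also had none. The tissue label was checked with Myl2, the ventricular myosin light chain, which was between 97412 and 209816 in all libraries. Myl7, the atrial light chain, was at most 212. Control sham replicate 3 stood apart on the second principal component, and it was the lowest of the 12 libraries for 12 of the 38 carriers (31.6%, against 23.1% of all tested genes). Slc25a13 was 699 in that library and 1280 to 1611 in the other 11. The counts of carriers that passed are also given without it. The labels name no animals, and p-values therefore reflect the spread of these libraries, which may be technical in part.

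A small share of all reads came from carriers, and 6 of them held most of it. Slc25a4 alone took 61.0% of the carrier reads of all libraries, Slc25a3 took 17.2% and Slc25a11, the oxoglutarate/malate carrier, 5.87%. Together with Slc25a12, Slc25a34 and Slc25a20 they reached 90.0%. The carriers' share of all reads was 1.19% ± 0.115 (SD, n = 3) in control sham, 0.811% ± 0.0174 in control TAC, 1.23% ± 0.0196 in knockout sham and 1.10% ± 0.0614 in knockout TAC. The control TAC libraries (0.791% to 0.822%) lay below all 9 others, which ran from 1.03% to 1.27%. Reads of genes encoded in mitochondrial DNA did not follow that order. They were 12.5% to 18.7% of reads in control sham, 15.5% to 17.1% in control TAC, 14.7% to 16.8% in knockout sham and 19.1% to 19.99% in knockout TAC.

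Per kilobase of exon, Slc25a4 stood at 32859 normalised reads over the 12 libraries, Slc25a3 at 3932 and Slc25a11 at 3522. A second tier followed, with Slc25a34 at 950.1, Slc25a5 at 836, Slc25a39 at 529, the carnitine/acylcarnitine carrier Slc25a20 at 447 and the aspartate/glutamate carriers Slc25a12 at 393 and Slc25a13 at 371. Slc25a53 was the lowest of the tested carriers, at 2.81 per kilobase. Neighbours in this order often overlapped between libraries, as Slc25a12 and Slc25a13 did, whereas Slc25a4 was at least 7.34 times Slc25a3 per kilobase in every library. Slc25a4 over Slc25a5, the balance of the heart translocase and the more widely expressed one, was 39.4, 40.0 and 51.0 in control sham, 30.2, 32.1 and 30.4 in control TAC, 38.6, 46.0 and 41.5 in knockout sham and 42.4, 37.8 and 40.6 in knockout TAC. The 3 control TAC ratios were the lowest of the 12.

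**Figure D1:**
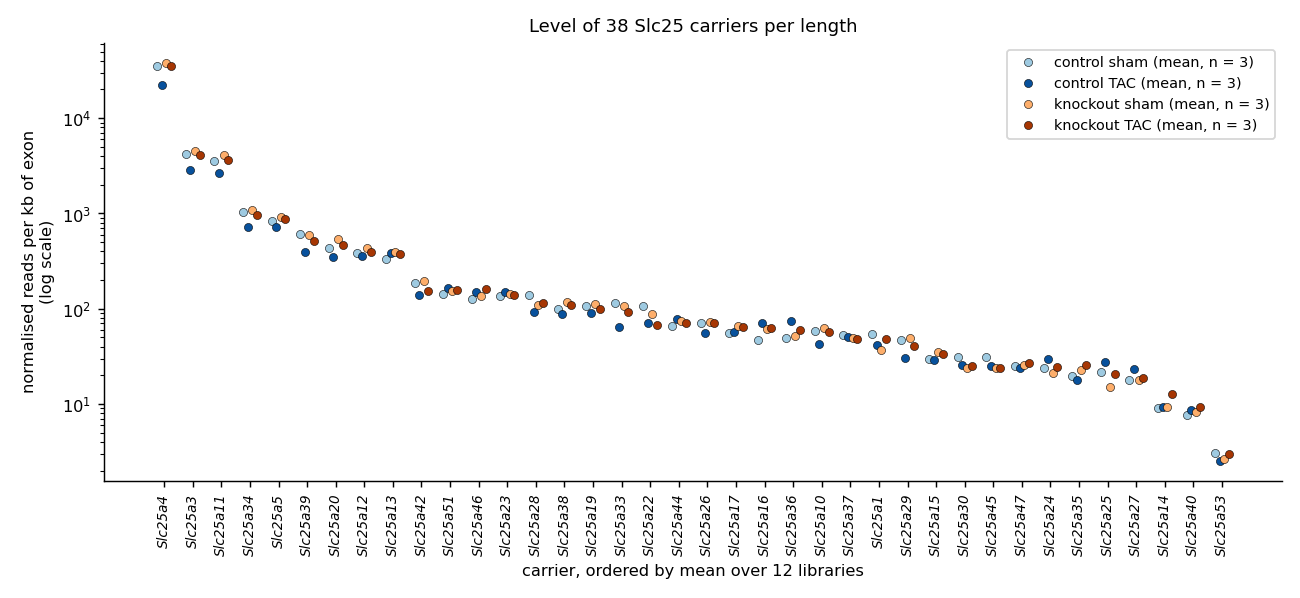
Level of each of the 38 tested carriers per kilobase of exon (log scale), with 1 point per group for the mean of 3 libraries and carriers ordered by their mean over 12 libraries. Slc25a4 stands at 32859 normalised reads per kilobase over the 12 libraries, above Slc25a3 at 3932, and the lowest carrier, Slc25a53, at 2.81.

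The 9 members that were not tested had few reads or none in this table. Slc25a18, a glutamate carrier, had 59 reads over the 12 libraries, Slc25a43 26, Slc25a2 20, Slc25a21, the oxodicarboxylate carrier, 18, and Slc25a48 1. No value of these genes exceeded 10.8. The carriers Slc25a31 (the translocase of the testis), Slc25a32, Slc25a41 and Slc25a54 were listed at 0 in every library.

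The first comparison asks how pressure overload changed the carriers in mice that carry lincRNA-p21. After TAC in controls, 8 of 38 carriers fell (21.1%, where 10.6% of all tested genes fell) and 1 rose (2.63%, where 11.0% of all genes rose). By either direction that was 23.7% of the carriers against 21.6% of all genes. The median change of log2(value + 1) was -0.17 over the 38 carriers and 0.01 over all genes, and 24 carriers were below 0. Those that fell included the adenine nucleotide translocase Slc25a4, the phosphate carrier Slc25a3 and 2 organic acid carriers (Slc25a11, Slc25a10). The others were 2 of the iron and glutathione carriers (Slc25a39, Slc25a28), the pyrimidine nucleotide carrier Slc25a33 and Slc25a34. All of these are limma-trend calls with Benjamini-Hochberg adjustment over all genes tested. In whole-tissue RNA, fewer cells of a type and less RNA per cell cannot be told apart.

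Slc25a4 (ENSMUSG00000031633.4, GRCm38 chromosome 8, 46206797 to 46211284) was 73743, 91113 and 86144 in the control sham libraries and 51552, 54696 and 51582 in the control TAC libraries. The groups did not overlap, and the control TAC libraries were also below all 6 knockout libraries. Its mean fell by 37.1%, a change of -0.66 ± 0.12 (SE; limma-trend, adjusted p = 0.00197). Slc25a3 (ENSMUSG00000061904.12, chromosome 10, 91116574 to 91124059) was 22670, 25337 and 21683 after sham and 15614, 15437 and 16565 after TAC. No sham library reached down to a TAC library. The change was -0.55 ± 0.11 (limma-trend, adjusted p = 0.00425). Both carriers passed without any single library and under all 11 other settings.

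Slc25a5, which exports ATP in many tissues, was 1311, 1594 and 1182 in control sham and 1195, 1192 and 1188 in control TAC. One sham library lay below all 3 TAC libraries, and the difference of -0.18 ± 0.14 did not pass (limma-trend, adjusted p = 0.37). The calcium-regulated ATP-Mg/phosphate carriers Slc25a23, Slc25a24 and Slc25a25 did not pass either, with differences of 0.13 ± 0.13, 0.31 ± 0.20 and 0.21 ± 0.41. Of the 6 adenine nucleotide and phosphate carriers tested, 2 fell and 0 rose, where 10.6% of all tested genes fell and 11.0% rose.

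Of the 3 di- and tricarboxylate carriers tested, 2 fell, where 10.6% of all tested genes did. Slc25a11 (ENSMUSG00000014606.14, chromosome 11, 70644196 to 70647479), which passes 2-oxoglutarate out and malate in as part of the malate-aspartate shuttle, was 7747, 8366 and 6755 after sham and 5582, 5581 and 5941 after TAC. The groups did not overlap, and the change was -0.41 ± 0.12 (limma-trend, adjusted p = 0.0229). Slc25a10, the dicarboxylate carrier, was 189.7, 223 and 187 after sham and 135, 155 and 155 after TAC. Its groups did not overlap either (-0.43 ± 0.14, limma-trend adjusted p = 0.0431). The citrate carrier Slc25a1, at -0.36 ± 0.20, did not pass (adjusted p = 0.21). The Slc25a11 call was lost when control sham replicate 2, control TAC replicate 1 or control TAC replicate 2 was left out (at most adjusted p = 0.0826). Slc25a10 passed in only 3 of the 12 fits that left out a library (highest adjusted p = 0.143).

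The other arm of the malate-aspartate shuttle, the aspartate/glutamate carriers Slc25a12 (aralar) and Slc25a13 (citrin), did not pass. Slc25a12 was 3289, 3049 and 2087 after sham and 2659, 2560 and 2678 after TAC (-0.07 ± 0.15, limma-trend adjusted p = 0.78). Slc25a13 was 1505, 1564 and 699 after sham and 1505, 1373 and 1549 after TAC (0.32 ± 0.23, adjusted p = 0.34). Without control sham replicate 3, Slc25a12 was at -0.27 (adjusted p = 0.0556) and Slc25a13 at -0.06 (0.77). With length and GC content also corrected, Slc25a12 passed at -0.55 (adjusted p = 0.000698). In both, control sham replicate 3 was the lowest library of all 12 and the other 11 ran close together. Per kilobase, the ratio of Slc25a12 to Slc25a13 was 0.894 to 0.964 in control TAC and 1.007 to 1.54 in the other 9 libraries. Before division by exon length (7.342 and 3.798 kb), Slc25a12 was above Slc25a13 in every library. Which side of 1 the ratio falls on therefore depends on the lengths used. None of the 7 tested amino acid carriers passed. Among them Slc25a22, a glutamate carrier, and Slc25a29, a carrier of basic amino acids, had the lowest differences (-0.69 ± 0.30, adjusted p = 0.11, and -0.59 ± 0.22, adjusted p = 0.071), without overlap between the groups.

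Slc25a20, which exchanges acylcarnitines for carnitine on the way to fatty acid oxidation, was 2536, 2265 and 1532 after sham and 1543, 1587 and 1907 after TAC. The groups overlapped through control sham replicate 3 alone, and the difference of -0.30 ± 0.16 did not pass (limma-trend, adjusted p = 0.20). Without that library Slc25a20 passed at -0.52 (adjusted p = 0.00719), as did Slc25a26, the S-adenosylmethionine carrier, at -0.47 (0.0228). Slc25a27, an uncoupling-protein-like carrier, then passed at 1.02 (0.0147). The Slc25a28 and Slc25a36 calls ended there, and the count of carriers without that library was 9 lower and 1 higher. Over all 13916 genes it was 1205 lower and 1197 higher.

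Among the iron and glutathione carriers 2 of 4 fell, where 10.6% of all tested genes did. Slc25a39 (ENSMUSG00000018677.9, chromosome 11, 102402985 to 102407946) was 1649, 1765 and 1653 after sham and 1074, 1052 and 1106 after TAC. Its groups were narrowly spread and did not overlap (-0.65 ± 0.11, limma-trend adjusted p = 0.0014). Slc25a28 (mitoferrin-2), the iron importer of non-erythroid cells, was 395, 483 and 677 after sham and 369, 355 and 326 after TAC (-0.53 ± 0.17, limma-trend adjusted p = 0.0352). The high value of control sham replicate 3 stood out, and the groups did not overlap. Slc25a37 (mitoferrin-1), the iron importer of erythroid cells, differed by -0.01 ± 0.21, and Slc25a40, the relative of Slc25a39, by 0.21 ± 0.25. Red cell markers moved with the same comparison. Their summed level was 6159 to 6736 in control sham and 2407 to 4129 in control TAC, with 3 of the 5 tested lower. Their part in the change of Slc25a39 was not tested. Leaving out control sham replicate 2 or 3 or any one of the control TAC libraries ended the Slc25a28 call (at most adjusted p = 0.130).

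Of the 9 cofactor and nucleotide carriers tested, 1 fell and 1 rose, where 10.6% of all tested genes fell and 11.0% rose. Both of these carriers move pyrimidine nucleotides. Slc25a33 was 163, 313 and 171 after sham and 129.8, 109 and 129 after TAC. The groups did not overlap (-0.75 ± 0.21, limma-trend adjusted p = 0.0187), and control sham replicate 2 was far above the others. Slc25a36 was 524, 479 and 404 after sham and 692, 934 and 515 after TAC. It rose by 0.57 ± 0.17 (limma-trend, adjusted p = 0.0275), although control TAC replicate 3 lay below the highest sham library. That call was lost when replicate 2 or 3 of control sham, or 1 or 2 of control TAC, was left out (at most adjusted p = 0.153), and the Slc25a33 call when replicate 2 of either group was (0.0837). Slc25a34 was 2508, 3294 and 2427 after sham and 2246, 1810 and 1785 after TAC. The groups did not overlap, and the change was -0.49 ± 0.14 (limma-trend, adjusted p = 0.0194). This call was lost when control sham replicate 2, or replicate 2 or 3 of control TAC, was left out (at most adjusted p = 0.0881). None of the 3 uncoupling-protein-like carriers passed.

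The abundant carriers held 5 of the 8 decreases. Of the 10 carriers with a mean of at least 1000 normalised reads, 9 were below 0, with a median of -0.45. Among all 1622 genes of that level 21.6% fell and the median was -0.03. Of the 28 carriers under 1000, 3 fell and 1 rose, with a median of -0.03. Among all 12294 genes of that level 9.13% fell, 10.2% rose and the median was 0.01. Without overlap between the libraries of both groups, 11 carriers were lower (28.9%, against 17.7% of all genes) and 1 was higher (2.63%, against 17.7%). The higher one was Slc25a51, the NAD carrier, at 908, 871 and 591 after sham and 931, 909 and 912 after TAC (adjusted p = 0.25).

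**Figure D2:**
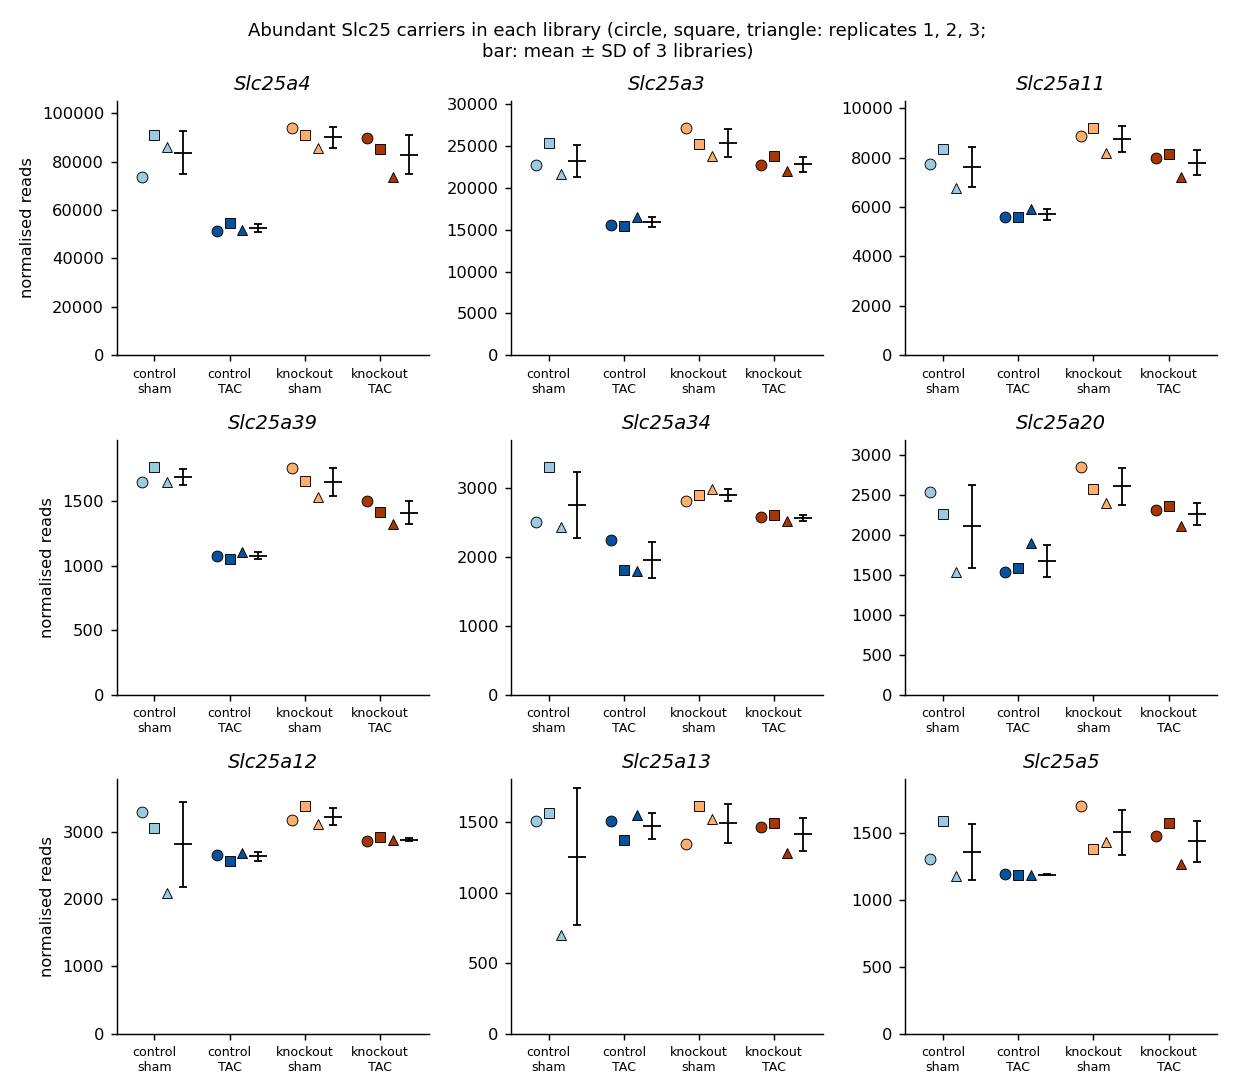
Normalised reads of 9 carriers in each of the 12 libraries, by group, from 0 on a linear axis, where the marker shape gives the replicate and the bar the mean ± SD of 3 libraries. The 3 control TAC libraries lie below all others for Slc25a4, Slc25a3, Slc25a11, Slc25a39 and Slc25a34, and control sham replicate 3 (triangle) is the lowest for Slc25a12, Slc25a13, Slc25a20 and Slc25a5.

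Changes in this comparison ran with transcript length and GC content over all genes (Spearman rho 0.41 and -0.44 across 13916 genes, which are not independent), and over the 38 carriers the values were 0.31 and -0.59. After each library was corrected for these 2 trends, 2 of the 8 decreases passed. In that setting 2 of 38 carriers were lower and 0 higher, where 710 and 640 of 13916 genes were. The median change was then -0.05 over carriers and 0.0003 over all genes. Slc25a3 was then at -0.78 (limma-trend, adjusted p = 0.000384) and Slc25a4 at -0.45 (0.0112). Slc25a39 was at -0.17 (adjusted p = 0.38), Slc25a11 at -0.10 (0.66), Slc25a28 at -0.45 (0.0613), Slc25a33 at -0.47 (0.15), Slc25a34 at -0.17 (0.48) and Slc25a10 at 0.04 (0.91). Slc25a36 was at 0.17 (0.53). With control sham replicate 3 also left out, a setting chosen after seeing the data, 7 carriers were lower and 1 higher. Over all 13916 genes, 848 were then lower and 592 higher. The median was -0.14 over carriers and -0.01 over all genes. The lower carriers were Slc25a3 (-0.75), Slc25a33 (-0.66), Slc25a12 (-0.55), Slc25a20 (-0.50), Slc25a4 (-0.46), Slc25a39 (-0.29) and Slc25a11 (-0.24), and the higher carrier was Slc25a27 (1.06). What gave rise to these trends was not tested.

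Marker lists of the cells a ventricular apex can hold also moved between the control groups. The summed level of 10 cardiomyocyte markers was 1065758 to 1076488 in control sham and 958762 to 1018052 in control TAC, with 4 lower and 2 higher, and that of 7 fibroblast markers was 10993 to 13547 and 15062 to 16490, with 2 higher. Of 7 mesothelial markers 5 were lower (summed level 214 to 548 after sham and 61.5 to 193 after TAC), and the sum of 6 atrial markers was 606 to 1135 and 2780 to 6166, with 4 of the 5 tested higher and Bmp10 below 10 everywhere. Endothelial markers overlapped (12635 to 21288 and 11804 to 13441) with 0 of 7 passing. The 7 adipocyte markers summed to 7197 to 9593 after sham and 4910 to 7132 after TAC, without overlap. Of these, 1 of the 3 tested was lower, and Lep and Ucp1 were below 10 everywhere. Nearly all of that sum was Fabp4 (mean 8570 after sham and 5760 after TAC). The low means of Adipoq (0.71 and 8.45), Cfd (9.83 and 17.7), Cidec (2.72 and 5.40) and Plin1 (2.13 and 2.83) went the other way. Macrophage markers (2078 to 2761 and 1851 to 2702, 1 of 7 higher) and smooth muscle and pericyte markers (12541 to 14225 and 10354 to 13292, 2 of 6 lower) overlapped. The part of these cells in the carrier changes was not tested.

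In knockouts, TAC was compared with sham in the same way. By limma-trend 0 of 38 carriers passed, where 1 of 13916 genes passed (0.00719%). At an unadjusted p under 0.05 there were 0 carriers, and 929 of 13916 genes. Both edgeR and DESeq2 called 0 carriers, where over all genes they called 1 and 23. The median over carriers was -0.06, with 23 below 0. Slc25a39 had the smallest p. It was 1757, 1659 and 1536 after sham and 1504, 1415 and 1321 after TAC, so the TAC libraries lay just under the sham libraries (-0.22 ± 0.11, limma-trend adjusted p = 0.74). The CoA carrier Slc25a42 differed by -0.39 ± 0.21 and the citrate carrier Slc25a1 by 0.36 ± 0.20 (adjusted p = 0.75 for each).

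Slc25a4 was 93877, 91005 and 85446 in knockout sham and 89690, 85160 and 73799 in knockout TAC, a difference of -0.12 ± 0.12 (limma-trend, adjusted p = 0.89) between overlapping groups. Slc25a3 was 27128, 25209 and 23767 after sham and 22747, 23738 and 21979 after TAC (-0.15 ± 0.11, adjusted p = 0.85). Slc25a11 was 8878, 9200 and 8183 after sham and 8003, 8159 and 7216 after TAC (-0.17 ± 0.12, adjusted p = 0.83). In Slc25a3 and Slc25a11 a narrow gap kept the groups apart. Slc25a20 was 2851, 2584 and 2397 and then 2320, 2360 and 2111 (-0.20 ± 0.16), and Slc25a12 was 3179, 3373 and 3120 and then 2860.1, 2914 and 2874 (-0.16 ± 0.15). Those groups did not overlap either. Slc25a13 differed by -0.08 ± 0.23 and Slc25a5 by -0.07 ± 0.14. Without overlap, 6 carriers were lower (15.8%, against 8.87% of all genes), namely Slc25a3, Slc25a11, Slc25a12, Slc25a20, Slc25a34 and Slc25a39, and 4 were higher (10.5%, against 8.31%), namely Slc25a1, Slc25a14, Slc25a36 and Slc25a46. All 10 carriers with a mean of at least 1000 were below 0, with a median of -0.16, against -0.04 for all genes of that level. A p that missed the threshold does not show that these carriers stayed level.

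**Figure D3:**
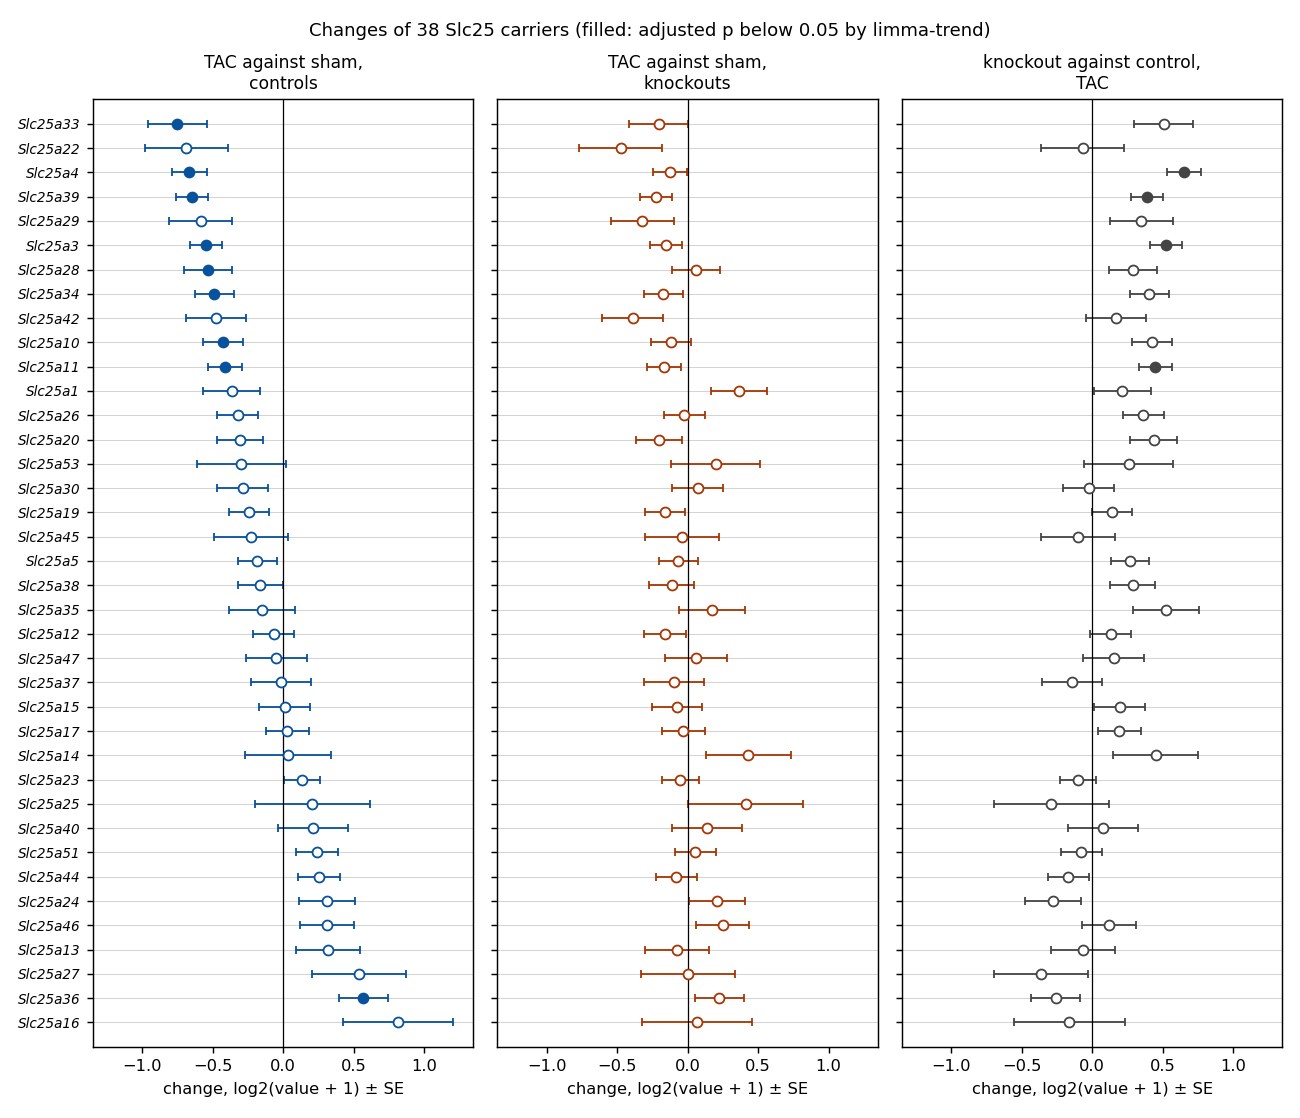
Change of each of the 38 carriers (difference of log2(value + 1) ± SE) after TAC in controls, after TAC in knockouts and between knockouts and controls after TAC, ordered by the change in controls, with filled points where the adjusted p was below 0.05. In controls 8 filled points lie below 0 and 1 above, in knockouts none is filled, and 4 lie above 0 for knockouts against controls after TAC.

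The comparison of genotypes after sham surgery asks what the loss of lincRNA-p21 did without overload. By limma-trend 0 of 38 carriers and 0 of 13916 genes passed (0%). At an unadjusted p under 0.05 there were 2 carriers, and 604 of 13916 genes. Both edgeR and DESeq2 called 0 carriers, where over all genes they called 0 and 1. The median over carriers was 0.09, against 0.03 over all genes, with 27 above 0. Slc25a1 had the smallest p, at 119, 90.2 and 139.9 in controls and 79.3, 78.5 and 82.3 in knockouts (-0.51 ± 0.20, limma-trend adjusted p = 0.93). All 3 knockouts were below all 3 controls. Slc25a30, an uncoupling-protein-like carrier, differed by -0.38 ± 0.18 and Slc25a20 by 0.33 ± 0.16 (adjusted p = 0.93 for each). Slc25a4 differed by 0.11 ± 0.12, Slc25a3 by 0.13 ± 0.11, Slc25a11 by 0.20 ± 0.12, Slc25a12 by 0.23 ± 0.15, Slc25a13 by 0.33 ± 0.23 and Slc25a5 by 0.15 ± 0.14. Without overlap, Slc25a17, the peroxisomal member, was the 1 higher carrier (2.63%, against 4.94% of all genes) and Slc25a1 the 1 lower one (2.63%, against 4.68%).

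After TAC the genotypes differed. In knockouts 4 of 38 carriers were higher than in controls (10.5%, where 4.10% of all genes were higher) and 0 were lower (where 4.13% of all genes were), which is 8.23% of all genes by either direction. Scaled to library totals the split over all genes moved from 570 higher and 575 lower to 299 and 951, with the median of all genes at -0.08, and 3 carriers were higher. Those 4 were Slc25a4, Slc25a3, Slc25a11 and Slc25a39, all among the 8 that fell with TAC in controls. Both comparisons use the same 3 control TAC libraries, so they are not independent. The median over carriers was 0.18, against 0.01 over all genes. Of the 10 carriers with a mean of at least 1000, 4 were higher and 1 was below 0 (median 0.40), where 13.7% of all genes of that level were higher.

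Slc25a4 was 51552, 54696 and 51582 in control TAC and 89690, 85160 and 73799 in knockout TAC. The lowest knockout lay far above the highest control, and the mean was 57.5% higher (0.65 ± 0.12, limma-trend adjusted p = 0.00712). Slc25a3 was 43.8% higher by the mean (0.52 ± 0.11, adjusted p = 0.0128), at 15437 to 16565 in controls and 21979 to 23738 in knockouts. Slc25a11 was 36.7% higher (0.45 ± 0.12, adjusted p = 0.0309), at 5581 to 5941 and 7216 to 8159. Slc25a39 was 31.2% higher (0.39 ± 0.11, adjusted p = 0.0425), at 1052 to 1106 and 1321 to 1504. For none of the 4 did the groups overlap. The Slc25a4 call ended only without knockout TAC replicate 1 (adjusted p = 0.0515). Those of Slc25a3 (highest 0.0753) and Slc25a11 (0.140) ended without replicate 1 or 2 of control TAC or of knockout TAC, that of Slc25a11 also without knockout sham replicate 2, and Slc25a39 passed in 4 of 12 such fits (0.178). Corrected for length and GC content, Slc25a4 (0.46, adjusted p = 0.0242) and Slc25a3 (0.60, 0.0069) passed, and Slc25a11 (0.22, 0.37) and Slc25a39 (0.13, 0.62) did not.

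Other carriers showed the same order without passing. Slc25a20 was 1543, 1587 and 1907 in control TAC and 2320, 2360 and 2111 in knockout TAC, without overlap (0.44 ± 0.16, limma-trend adjusted p = 0.11). Slc25a5 was 1195, 1192 and 1188 in controls and 1478, 1575 and 1271 in knockouts, also without overlap (0.27 ± 0.14, adjusted p = 0.24). Slc25a12 differed by 0.13 ± 0.15 and Slc25a13 by -0.06 ± 0.23. In all, 12 carriers were higher without overlap (31.6%, against 15.6% of all genes) and 0 were lower (against 15.5%). Leaving out control sham replicate 3, which enters this comparison through the shared estimate of the spread, gave 8 higher carriers. Slc25a20 (limma-trend, adjusted p = 0.0114), Slc25a34 (0.0222), Slc25a10 (0.0448) and Slc25a26 (0.0475) were the added ones. The calls over all genes grew as well, from 570 to 1066 higher of 13916. With that library left out and length and GC content corrected, 4 carriers were higher, where 620 of 13916 genes were. These carriers were Slc25a3 (0.60), Slc25a4 (0.46), Slc25a12 (0.41, limma-trend adjusted p = 0.00376) and Slc25a20 (0.37). The summed level of the red cell markers was 3146 to 10442 in knockout TAC, that of the cardiomyocyte markers 1093642 to 1188926, that of the fibroblast markers 9414 to 12561 and that of the atrial markers 1504 to 2173. The mesothelial markers summed to 198 to 416 in knockout TAC and 61.5 to 193 in control TAC, without overlap, with 2 of 7 higher. Their part in these differences was not tested.

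**Figure D4:**
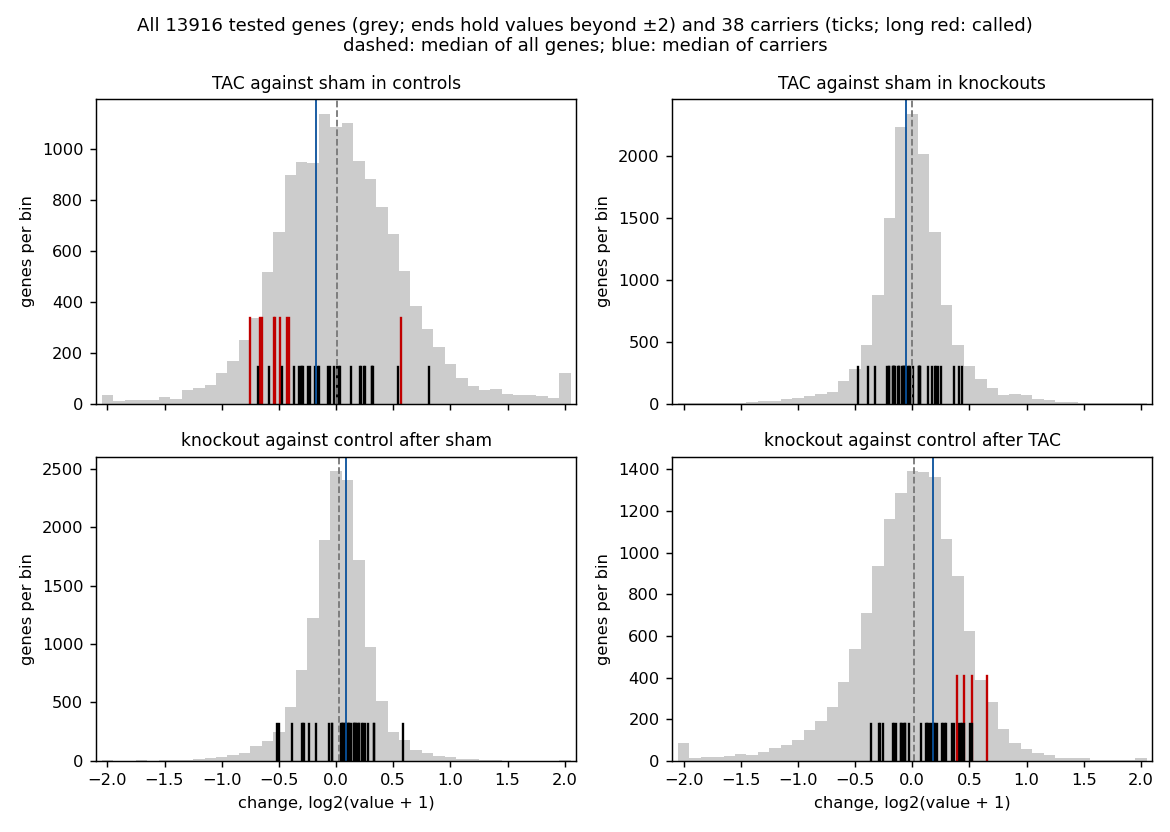
Distribution of the change of log2(value + 1) over all 13916 tested genes (grey bars) in 4 comparisons, with a tick for each of the 38 carriers (long and red where called), a dashed line at the median of all genes and a blue line at the median of carriers. The carriers' median is -0.17 after TAC in controls and 0.18 for knockouts against controls after TAC, where the medians of all genes are 0.01.

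Whether the carriers answered to TAC differently in the 2 genotypes was tested by the difference of the TAC effects. By limma-trend 0 of 38 carriers passed, where 43 of all genes (0.309%) did, 0.295% lower and 0.0144% higher in knockouts. At an unadjusted p under 0.05 there were 5 of 38 carriers, and 2292 of 13916 genes. Over all genes edgeR called 40 and DESeq2 463. Among the carriers edgeR called 0 and DESeq2 called 1. That 1 was Slc25a4, whose change was higher in knockouts by 0.54 ± 0.17 (limma-trend, adjusted p = 0.15), with adjusted p from 0.0332 by DESeq2 to 0.43 over 22 alternatives. It also passed without control sham replicate 1. Slc25a39 (0.42 ± 0.16, adjusted p = 0.21) and Slc25a1 (0.73 ± 0.28, 0.22) came next and passed under 0 of 22 alternatives. For the other carriers followed throughout, the differences were 0.40 ± 0.16 for Slc25a3, 0.25 ± 0.17 for Slc25a11, 0.10 ± 0.23 for Slc25a20, 0.12 ± 0.19 for Slc25a5, -0.09 ± 0.21 for Slc25a12 and -0.40 ± 0.32 for Slc25a13. So the TAC effects of the genotypes were not shown to differ for any of the 38 carriers by limma-trend.

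**Figure D5:**
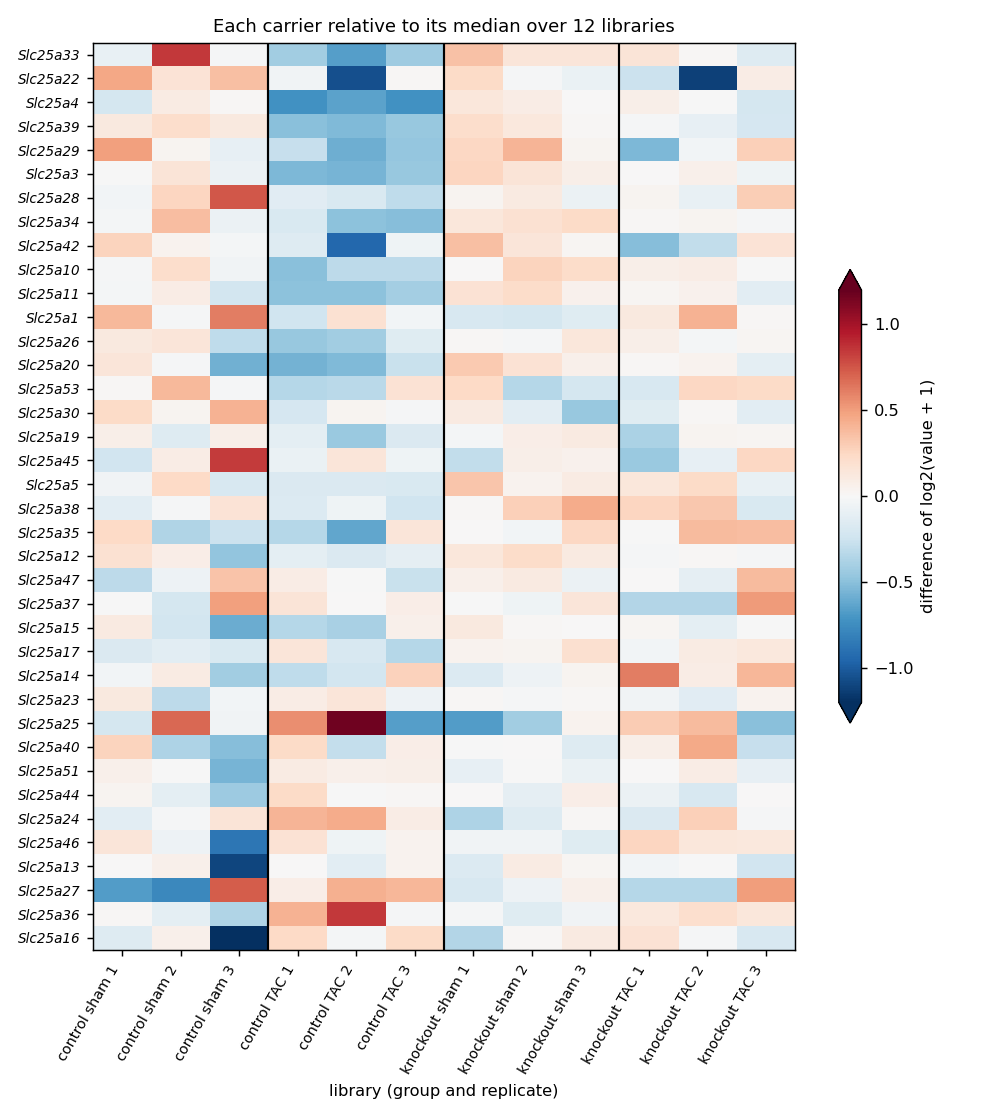
Each of the 38 carriers (rows, ordered by the change after TAC in controls) in each of the 12 libraries (columns), as the difference of log2(value + 1) from the carrier's median over the 12 libraries. The top rows hold the carriers with the lowest change after TAC in controls and the bottom rows those with the highest. Control sham replicate 3 departs from the other libraries in many rows. It is the lowest of the 12 for 12 carriers (31.6%, against 23.1% of all tested genes).

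Genes that work beside the carriers were counted in the same fits. In controls after TAC, 5 of 6 tested partners of ATP export fell and 0 rose, where 10.6% of all tested genes fell and 11.0% rose. The ATP synthase subunit Atp5a1 was also listed but was at most 1.86 in every library, below the minimum. Why it was so low was not tested. The ATP synthase subunits Atp5d (-0.99 ± 0.14, limma-trend adjusted p = 0.000362) and Atp5b (-0.56 ± 0.11, 0.00279) and the mitochondrial creatine kinase Ckmt2 (-0.60 ± 0.11, 0.00162) had the smallest p. Ckmt2, which passes the phosphate of exported ATP to creatine, was 32973 to 35035 in control sham, 21653 to 23145 in control TAC, 33178 to 36482 in knockout sham and 30283 to 30497 in knockout TAC. Of the 4 malate-aspartate shuttle enzymes the mitochondrial Mdh2 (-0.56 ± 0.11, 0.00279) and Got2 (-0.46 ± 0.11, 0.00907) fell, and of 4 carnitine acyltransferases Cpt2 (-0.58 ± 0.13, 0.00627) and Crat (-0.43 ± 0.13, 0.0276) fell. Among 21 other transport proteins of the mitochondrial membranes 2 fell, the pyruvate carrier subunit Mpc2 (-0.65 ± 0.15, 0.00738) and the calcium uniporter subunit Smdt1 (-0.62 ± 0.14, 0.00651). Of 9 import proteins for carriers the small chaperone Timm13 fell (-0.79 ± 0.19, 0.0078) and Tomm70a, the outer membrane receptor for carrier precursors, differed by 0.60 ± 0.21 (0.0507). The carrier relatives Ucp2, Ucp3, Mtch1 and Mtch2 did not pass. Corrected for length and GC content, 3 of the 6 export partners, 1 of the 4 shuttle enzymes, 0 of the 4 acyltransferases and 0 of the 9 import proteins were lower, and of the 21 transport proteins 2 were lower and 1 was higher.

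Between the genotypes after TAC, 4 of the 6 export partners were higher in knockouts, where 4.10% of all tested genes were. These partners were Atp5d (0.67 ± 0.14, limma-trend adjusted p = 0.0108), Atp5c1 (0.54 ± 0.13, 0.0186), Ckmt2 (0.44 ± 0.11, 0.0217) and Atp5b (0.44 ± 0.11, 0.0217). Mdh2 (0.54 ± 0.11, 0.00981) and Mpc2 (0.69 ± 0.15, 0.0128) were higher as well, and no import protein, acyltransferase or carrier relative passed. Corrected for length and GC content, 0 of the 6 export partners passed. After TAC in knockouts and between genotypes after sham, 0 genes of these lists passed by limma-trend.

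Counting limits touch a few carriers. Whether counting used the strand is not given in the sources used here, and 12 of the 38 tested carriers share exon bases with another annotated gene. The largest overlaps on the opposite strand were Slc25a35 with Rangrf (31.3% of its exon length), Slc25a33 with Gm13068 (14.9%) and Slc25a11 with Rnf167 (8.9%). Slc25a46 with B930094E09Rik (7.06%) and Slc25a10 with Gm11788 (6.6%) came next, so reads of these pairs may be mixed. Slc25a4 and Slc25a5 encode similar proteins, and Slc25a5 has an annotated pseudogene copy, so reads that fit more than 1 copy are uncertain.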

How the data were processed

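Polyadenylated RNA was measured in 12 libraries of ventricular apex. Per the labels' protocols, RNA was extracted with TRIzol and made into libraries with a stranded mRNA kit. The submitters' processing notes name GRCm38.p6, STAR, SAMtools and featureCounts; for versions, annotation and strand setting, not given in the sources used here, nothing was assumed. The deposited signal values are reads that the authors divided by one size factor per library, as the values themselves show: 100% are whole multiples of 1 read (within 0.1), and the factors equal median-of-ratios factors. Of 56350 IDs, 55480 matched GENCODE M21, which gave symbols, positions and exon lengths.

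limma-trend (limma 3.58.1, R 4.3.3, robust) was fitted to log2(value + 1) of the 13916 genes at 10 or more in 3 or more libraries, with 4 group means, 5 contrasts and Benjamini-Hochberg adjustment at 0.05 within each. The fit was tested on simulated data. The scale understates changes of low genes. The design planned edgeR for counts; since the values are normalised, edgeR 4.0.16 and DESeq2 1.42.0 on recovered reads became alternatives, beside library totals, pseudocounts 0.5 and 5, other filters, a replicate block, the compared libraries alone, loess correction (span 0.5) for length and GC content, and each library left out. Tables and plots used Python 3.11.15, pandas 2.3.3, numpy 2.4.6, scipy 1.17.1 and matplotlib 3.10.9.

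Members, lists and classes were chosen with earlier results of these data known. Named were 7 carriers throughout (Slc25a3, Slc25a4, Slc25a5, Slc25a11, Slc25a12, Slc25a13 and Slc25a20), those that passed, the 3 smallest p where fewer than 3 passed, and up to 3 genes per other list. All further carriers were named after their values were seen. The ± after a share of reads is the SD of 3 libraries, and the ± after a change is the SE of the limma-trend fit.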

Additional observations from a re-analysis of the deposited data

How the results depend on the processing

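The count of carriers lower after TAC in controls (8 as reported) was 3 with only the libraries compared, 2 with length and GC content corrected (7 with control sham replicate 3 also left out, a setting chosen after seeing the data), and 3 to 9 without one library each; carriers higher (1) were 0, 0 (1) and 0 to 2. Higher in knockouts after TAC (4) were 2 with the correction (4 with that library also left out, among 1026 genes) and 0 (without knockout TAC replicate 1) to 8 (without control sham replicate 3) without one library. For the difference of TAC effects (0) DESeq2 gave 1, and leaving out a library 0 to 1; it has no fit with only the libraries compared. Over all genes, TAC in controls gave 3006 calls, 1350 with the correction, 1433 with only the libraries compared, and 1549 (without control TAC replicate 2) to 3656 (without control sham replicate 1) without one library. Knockout against control after TAC gave 1145, 443 with the correction and 202 to 2143 without one library; the difference of effects gave 43, 463 by DESeq2, 15 with the correction and 8 to 755; TAC in knockouts gave 1, 23 by DESeq2 and 32 with only the libraries compared. Directions turned only in carriers that did not pass, apart from Slc25a10. With the correction, Slc25a10 (0.037) and Slc25a5 (0.045) turned after TAC in controls, Slc25a5 (-0.0105) between genotypes after TAC, and Slc25a11 (-0.027), Slc25a12 (0.23) and Slc25a5 (-0.16) in the difference of effects. With control sham replicate 3 also left out, Slc25a13 was -0.086 after TAC in controls and -0.047 between genotypes after sham, Slc25a5 -0.0105 after TAC, and the difference of effects 0.39 for Slc25a12 and -0.043 for Slc25a5. Without one library each, Slc25a12 ran from -0.27 to 0.061 and Slc25a13 from -0.058 to 0.52 after TAC in controls, Slc25a5 from -0.13 to 0.024 after TAC in knockouts, Slc25a13 from -0.045 to 0.53 (sham) and -0.11 to 0.0073 (TAC) between genotypes, and the difference of effects from -0.22 to 0.11 for Slc25a12, -0.047 to 0.32 for Slc25a20 and -0.0030 to 0.21 for Slc25a5. The cause was not tested. Whether replicate numbers pair the samples was not settled by correlating the libraries' deviations from their group means. The 18 same-numbered pairs correlated at -0.072 to 0.25, with 3 over 0.1, and pairs of different number reached 0.156. Of the 12 libraries, 6 correlated best with their own number. The replicate block gave 9 lower and 1 higher carriers for TAC in controls, 3 higher for knockouts after TAC and 0 elsewhere. The 9 carriers not tested had 59 reads or fewer each, and why was not tested.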

Other observations

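Some carriers varied by library rather than by group. Control sham replicate 3 was outside the range of the other 11 libraries in 17 of the 38 carriers. It was below it in 12 (31.6%, against 23.1% of all tested genes) and above it in 5 (13.2%, against 17.4%). Slc25a16, a carrier linked to CoA, was 80.5 in that library and 239 to 360 in the others, Slc25a46, an outer-membrane member, was 426 against 706 to 930, and Slc25a28 was 677 against 326 to 497. The CoA carrier Slc25a42 and the glutamate carrier Slc25a22 had low values in single libraries of both TAC groups. Slc25a22 was 247 in control TAC replicate 2 and 236 in knockout TAC replicate 2, and 430 to 706 in the other 10. Slc25a42 was 541 in control TAC replicate 2 and 729.99 in knockout TAC replicate 1, against 849 to 1341 elsewhere. Slc25a25, an ATP-Mg/phosphate carrier, varied widely within control TAC, at 221, 337 and 94.2. These values were picked after they were seen, and no test was made of them.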
